A study of Homo sapiens with 3 samples.

Results

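The PAR bZIP factors DBP, TEF and HLF and their antagonist NFIL3 were described here through the genomic sites at which BMAL1 and MAX were found at their genes in MDA-MB-231 cells, an established human triple-negative breast cancer line. Members were all entries of the BMAL1 and MAX peak lists whose summit lay in the gene body or within 20 kb of a transcription start site (TSS) of DBP, TEF, HLF or NFIL3. This rule selected 10 of 14406 listed peaks, 3 of the 756 BMAL1 peaks and 7 of the 13650 MAX peaks. Chromatin, fixed in 1% formaldehyde over 10 min, was pulled down with 4 µg of an antibody against BMAL1 in one library and against MAX in the other, and input chromatin of the same cell line was the control for both. With 1 library per antibody, no value has a replicate error and no test between conditions was possible. The labels name neither a synchronisation of the cells nor a time of collection.

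DBP, TEF and HLF are transcription factors of the basic leucine zipper class with a proline and acidic amino acid-rich (PAR) domain. They activate genes that carry D-box elements, and NFIL3 (also called E4BP4), which lacks the PAR domain, represses through the same elements. DBP is a textbook output of the clock, because the activator BMAL1 binds with CLOCK to E-boxes (CACGTG) in the gene and drives its rhythm, and the D-box factors pass the rhythm on in a later phase. MAX, the obligate partner of MYC and of repressors such as MNT, recognises the same E-box.

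The activator genes DBP and TEF held overlapping peaks of BMAL1 and MAX. HLF held a peak of neither within the 20 kb window, and NFIL3 held one of MAX alone. DBP, a minus-strand gene of 7350 bp on chromosome 19 (49133287 to 49140636, hg19), had 2 BMAL1 and 4 MAX peaks. TEF, a plus-strand gene of 31994 bp on chromosome 22 (41763337 to 41795330), had 1 BMAL1 and 2 MAX peaks. HLF, a plus-strand gene of 60228 bp on chromosome 17 (53342321 to 53402548), had 0 peaks of either factor. NFIL3, a minus-strand gene of 14788 bp on chromosome 9 (94171327 to 94186114), had 0 BMAL1 peaks and 1 MAX peak. Over the 20176 protein-coding genes treated by the same rule, 4.97% had a BMAL1 peak and 54.7% had a MAX peak, and 4.44% had a BMAL1 peak that overlapped a MAX peak. A BMAL1 peak was therefore found at 2 of 4 genes against a background of 4.97%, whereas a MAX peak at 3 of 4 genes lay near its background. The 4 genes were chosen by name with earlier results of these data known, so this contrast is a description and was not tested. DBP was among the 68 protein-coding genes (0.337%) with 2 or more BMAL1 peaks. The category of NFIL3, a MAX peak without a BMAL1 peak, held 49.9% of protein-coding genes, and that of HLF, no peak of either factor, 45.1%.

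**Figure D1:**
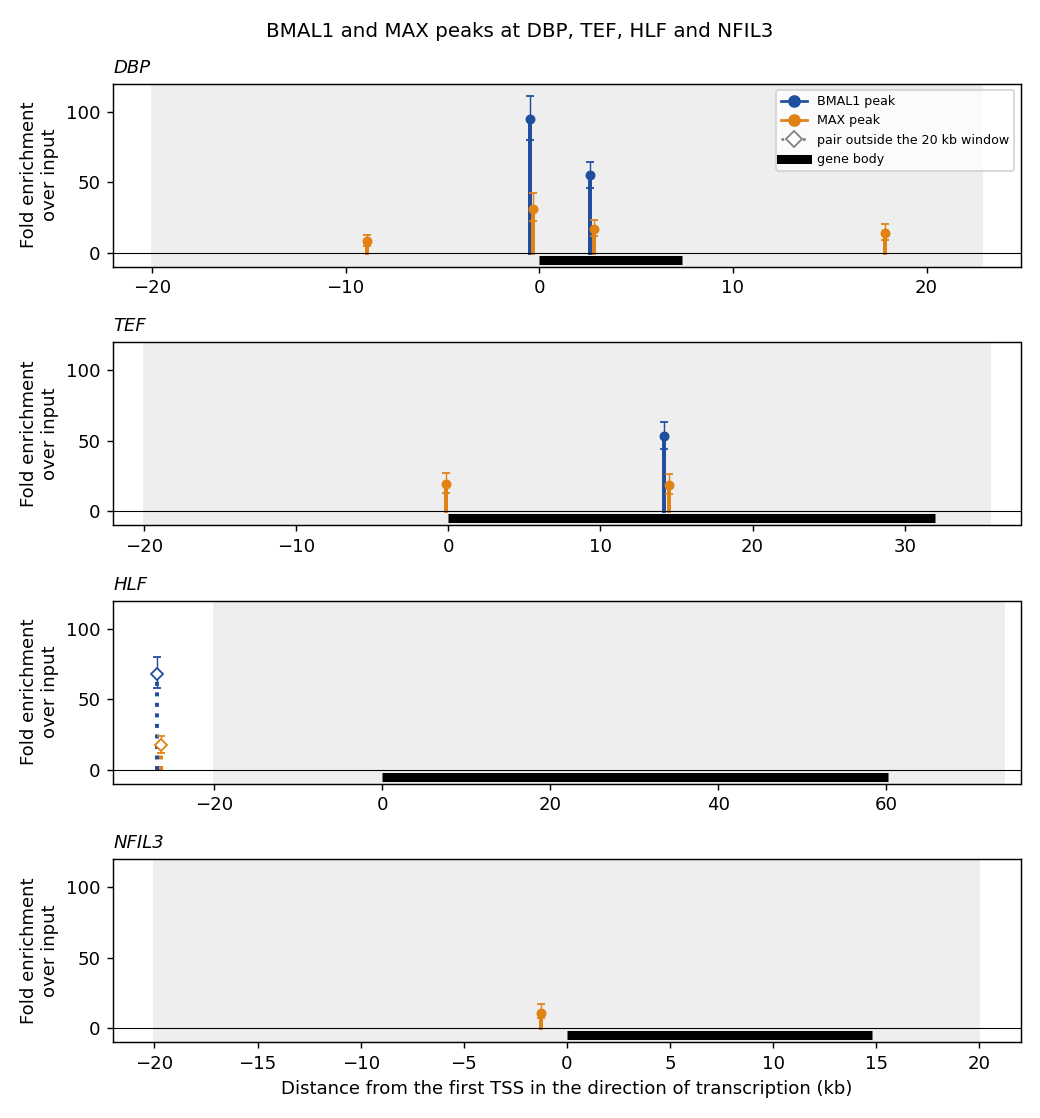
Fold enrichment over input (vertical axis) of each BMAL1 (blue) and MAX (orange) peak against the distance of its summit from the first TSS of the gene, in kb in the direction of transcription. Stems of overlapping peaks are drawn slightly apart, error bars are 95% Poisson intervals for counting error, black bars are gene bodies and grey areas the regions of the rule. The BMAL1 peaks of DBP (94.6 and 54.8) and TEF (53.3) stand inside the grey areas, and the open symbols at HLF lie outside, at 68.2 for BMAL1.

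The sequences that carry the sites are printed before their values, since the 3 BMAL1 sites and the HLF site differ in their elements. Each is hg19 reference sequence in the direction of transcription of the gene, usually 120 bases to either side of the summit. Capitals mark E-boxes (CACGTG), E′-boxes (CACGTT in either orientation), and the related hexamers CACGCG and CACATG in either orientation. Annotated UTRs were left out, except for 30-base runs around an element. The first is the strongest site, at the 5′ end of DBP, chr19:49140897-49141137, minus strand.
DBP 5′ end: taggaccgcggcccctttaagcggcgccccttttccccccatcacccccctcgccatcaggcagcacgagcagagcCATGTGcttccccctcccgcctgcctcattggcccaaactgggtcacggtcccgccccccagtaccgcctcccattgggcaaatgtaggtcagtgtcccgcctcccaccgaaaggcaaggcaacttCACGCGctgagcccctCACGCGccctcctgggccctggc
The second is the internal site of DBP at an alternative TSS, given as the stretch upstream of that TSS, chr19:49137894-49138016, and as the elements in the UTR of a shorter transcript at chr19:49137868-49137897 and chr19:49137806-49137835, all on the minus strand.
DBP internal, upstream: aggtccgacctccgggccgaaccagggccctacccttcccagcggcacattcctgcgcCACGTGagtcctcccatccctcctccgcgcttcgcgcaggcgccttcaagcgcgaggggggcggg
DBP internal, E′-box: cggggccgggggAACGTGagggcgccgatg
DBP internal, second E-box: agcaggcgtcagCACGTGactcggccctga
The third is the TEF site, chr22:41777534-41777774, plus strand.
TEF internal: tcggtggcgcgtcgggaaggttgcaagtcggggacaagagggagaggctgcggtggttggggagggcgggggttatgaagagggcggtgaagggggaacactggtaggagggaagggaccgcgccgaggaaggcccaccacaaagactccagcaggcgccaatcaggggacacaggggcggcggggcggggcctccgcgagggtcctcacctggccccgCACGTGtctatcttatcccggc
For contrast, the MAX sites without a BMAL1 peak at the first TSS of TEF (chr22:41763075-41763315, plus strand) and upstream of NFIL3 (chr9:94187256-94187496, minus strand) follow.
TEF first TSS: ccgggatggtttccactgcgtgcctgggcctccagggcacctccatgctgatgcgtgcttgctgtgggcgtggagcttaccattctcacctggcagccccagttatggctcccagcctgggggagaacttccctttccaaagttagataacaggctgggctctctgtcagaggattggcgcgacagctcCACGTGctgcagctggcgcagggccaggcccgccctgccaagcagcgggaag
NFIL3 upstream: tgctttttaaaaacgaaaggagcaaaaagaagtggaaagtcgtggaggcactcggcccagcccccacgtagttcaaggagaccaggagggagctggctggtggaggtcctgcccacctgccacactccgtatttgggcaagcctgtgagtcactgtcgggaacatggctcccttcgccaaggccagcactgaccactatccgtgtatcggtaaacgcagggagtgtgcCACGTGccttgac
The last is the site upstream of HLF, outside the 20 kb window, chr17:53315649-53315889, plus strand.
HLF upstream: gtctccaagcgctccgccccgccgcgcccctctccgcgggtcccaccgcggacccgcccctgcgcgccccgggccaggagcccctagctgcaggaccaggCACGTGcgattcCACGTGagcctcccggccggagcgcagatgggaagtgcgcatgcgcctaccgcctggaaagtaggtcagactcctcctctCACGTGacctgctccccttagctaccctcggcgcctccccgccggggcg

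The depth of the libraries was 13866783 tags for BMAL1, 11545865 for MAX and 29308882 for the input. The pileup is the number of tags, extended to 300 bp, that cover the summit. Fold enrichment sets this pileup over a local background that the peak caller takes from the input. The median BMAL1 peak had 24 fragments at its summit and a fold enrichment of 10.3, and the median MAX peak 18 fragments and 9.73. Intervals given below are exact 95% Poisson intervals of the pileup, divided by the background where they belong to a fold enrichment, and cover counting error only. The background was held fixed, so its own counting error is not in them. Positions of TSSs are those of GENCODE release 44 on hg19.

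At DBP, the gene with the most sites, the stronger BMAL1 peak stood at the 5′ end and the weaker one inside the gene. The 5′ peak (chromosome 19, 49140506 to 49141397) had a pileup of 149 fragments (interval 126.0 to 174.9) and a fold enrichment of 94.6 (80.0 to 111.0). It ranked 4 in the BMAL1 list, above 99.5% of its peaks. Its summit was intergenic, 381 bp upstream of the first DBP TSS and 311 bp upstream of the TSS of the pseudogene SEC1P, which runs the other way. The internal peak (49137519 to 49138380) had a pileup of 140 fragments (117.8 to 165.2) and a fold enrichment of 54.8 (46.1 to 64.7), rank 14. Its summit lay 2740 bp downstream of the first TSS and 3 bp upstream of the TSS of a shorter protein-coding transcript, in an intron of the full-length one that is kept in a retained-intron transcript. The summits were 3121 bp apart, and 2125 bp without a listed BMAL1 peak separated the peaks.

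The difference between these sites lay in the input background more than in the number of BMAL1 fragments. The pileups of 149 and 140 had overlapping counting intervals, whereas the intervals of the fold enrichments did not overlap. The background was 1.58 fragments at the 5′ end, above that of 14.7% of BMAL1 peaks, and 2.55 at the internal site. The lowest background in the BMAL1 list was 1.54, a value that 13.0% of its peaks had or nearly had, so the 5′ value was close to a shared minimum. The part of the local input in the order of the folds was not tested.

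MAX lay on both BMAL1 sites of DBP, with its summits 32 bp and 6 bp from those of BMAL1. At the 5′ end the MAX peak (49140379 to 49141571) contained the whole BMAL1 peak and had a pileup of 41 fragments (29.4 to 55.6) and a fold enrichment of 31.3 (22.4 to 42.4), above 99.6% of MAX peaks. At the internal site the MAX peak (49137641 to 49138166) had 35 fragments (24.4 to 48.7) and a fold enrichment of 16.5 (11.5 to 22.9), above 91.3% of the list. As for BMAL1, the backgrounds differed, at 1.31 and 2.13 fragments. The lowest in the MAX list was 1.28, a value that 15.4% of its peaks had or nearly had.

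The other 2 MAX peaks in the DBP window belonged by position to neighbouring genes. The first (49122005 to 49122960, fold enrichment 13.8) had its summit 13 bp from a TSS of SPHK2, which encodes a sphingosine kinase, and 15005 bp from the nearest DBP TSS, the most distant member. The second (49149335 to 49149825, fold enrichment 8.04) lay 84 bp upstream of a TSS of CA11, a carbonic anhydrase-related gene, and 8892 bp upstream of DBP. Neither overlapped a BMAL1 peak, and the CA11 peak exceeded only 26.9% of MAX peaks.

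TEF carried both factors at an internal promoter and MAX alone at the first promoter. The BMAL1 peak (chromosome 22, 41776666 to 41778016) had a pileup of 126 fragments (105.0 to 150.0) and a fold enrichment of 53.3 (44.4 to 63.4), rank 15 of the list. At 1351 bp it was longer than 99.5% of BMAL1 peaks. Its summit was 14317 bp into the gene, in the first intron of the long transcript and 292 bp upstream of the TSS of the second transcript. The MAX peak there (41776875 to 41778098) had 29 fragments (19.4 to 41.6) and a fold enrichment of 18.4 (12.3 to 26.4), with its summit 30 bp from that of BMAL1. At the first TSS, the MAX peak (41763015 to 41763594) had its summit 142 bp upstream, 30 fragments (20.2 to 42.8) and a fold enrichment of 19.0 (12.8 to 27.2). The MAX levels of both TEF promoters thus differed by less than the counting error, although a BMAL1 peak was listed at only the internal one.

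NFIL3, the repressor of the group, had a MAX peak of ordinary strength and no BMAL1 peak. The MAX peak (chromosome 9, 94186822 to 94187502) had 21 fragments (13.0 to 32.1) and a fold enrichment of 11.1 (6.88 to 16.98), above 65.4% of MAX peaks. Its summit was intergenic, 1262 bp upstream of the only NFIL3 TSS and 1144 bp upstream of the TSS of a long non-coding RNA (ENSG00000233081) transcribed the other way. The nearest BMAL1 peak lay 305574 bp from the NFIL3 TSS and had a fold enrichment of 9.51. The weakest peak of the BMAL1 list had 12 fragments at its summit, so the list does not show whether fewer fragments were present at NFIL3.

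HLF had no listed peak in 93994 bp of gene body and TSS windows, but a pair of peaks stood just beyond the limit. The BMAL1 peak (chromosome 17, 53315308 to 53316176) had its summit 26552 bp upstream of the first HLF TSS, with 155 fragments (131.6 to 181.4) and a fold enrichment of 68.2 (57.9 to 79.9). It ranked 10 in the BMAL1 list, above both the internal DBP and the TEF peak. The MAX peak (53315437 to 53316120) had 34 fragments (23.5 to 47.5) and a fold enrichment of 17.3 (11.95 to 24.1). HLF was the gene with the nearest TSS of any kind. These peaks are not members, and the deposited lists do not show which gene the site serves. They were the closest to the limit from outside, and the SPHK2 peak was the closest from inside.

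**Figure D2:**
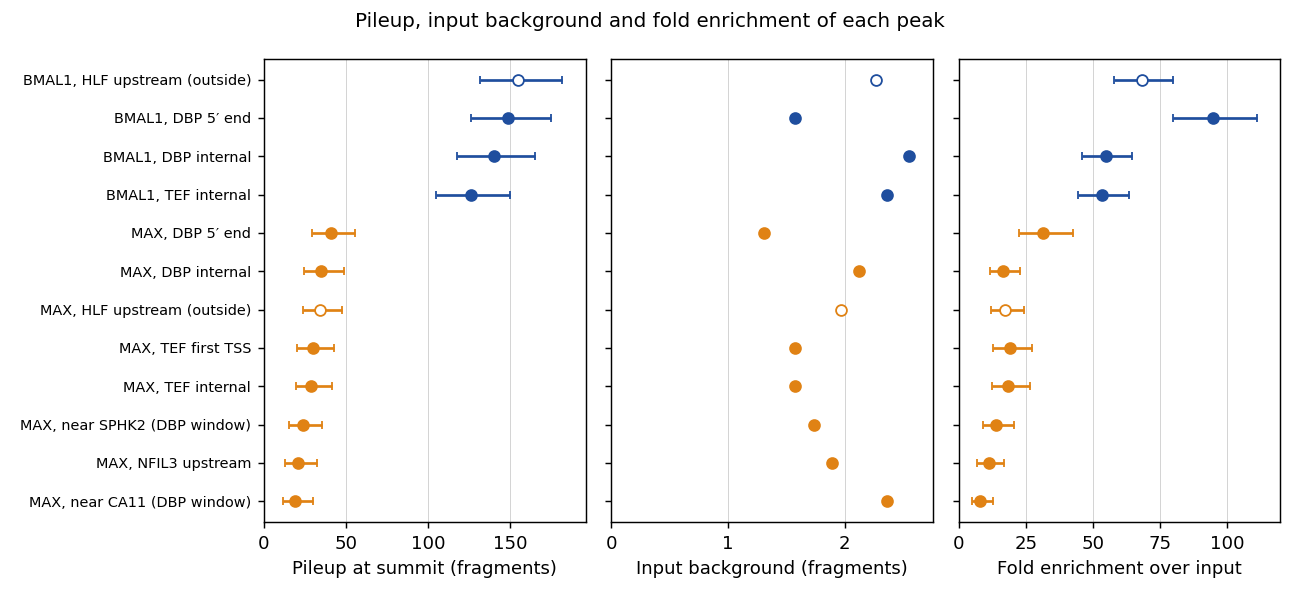
Pileup at the summit, local input background (both in fragments) and fold enrichment over input of each BMAL1 (blue) and MAX (orange) peak, with 95% Poisson intervals for counting error; open circles are the pair upstream of HLF, outside the 20 kb window. The BMAL1 pileups sit between 126 and 155 with overlapping intervals, while the fold enrichment of the DBP 5′ end (94.6) lies above the intervals of the other members.

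In order of pileup, the BMAL1 members ran from the DBP 5′ end (149) through the DBP internal site (140) to TEF (126), and every pair of these intervals overlapped. In order of fold enrichment, the interval of the DBP 5′ end lay above those of the others, with each background held fixed. The intervals of the DBP internal site (54.8) and TEF (53.3) overlapped. The 7 MAX members ranged from 19 to 41 fragments and from 8.04 to 31.3 in fold enrichment. Each MAX pileup overlapped its neighbour in the order, and even the interval of the highest (29.4 to 55.6) reached that of the lowest (11.4 to 29.7).

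All 3 BMAL1 members overlapped a MAX peak, and 3 of the 7 MAX members overlapped a BMAL1 peak. Over the whole lists, the shares were 84.1% for BMAL1 and 4.67% for MAX. BMAL1 and MAX were pulled down in separate libraries, so overlap does not show that both were bound at the same time. The 3 BMAL1 summits lay within 500 bp of an annotated TSS, and so did 6 of the 7 MAX summits, the exception being NFIL3. Among all peaks, 43.5% of BMAL1 summits (Wilson 95% interval 40.0% to 47.1%) and 52.5% of MAX summits lay that close to a TSS of any gene. The rule admitted only summits in a gene body or within 20 kb of a TSS, so these shares are not a like background for the members. The BMAL1 members were also long, since the shortest of them (862 bp) exceeded 96.4% of BMAL1 peaks, while their GC content of 59.4% to 63.5% was near the median of the list (59.0%).

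BMAL1 exceeded MAX in fold enrichment at each shared member. The ratio of the BMAL1 to the MAX fold was 3.33 at the DBP internal site, 3.03 at the DBP 5′ end, 2.89 at TEF and 3.95 at the site upstream of HLF. Over the 636 pairs of overlapping peaks the median ratio was 0.79 (quartiles 0.56 and 1.18), and the member pairs lay above 97.2% to 98.6% of them. Of the 20 BMAL1 peaks of highest fold enrichment, 4 were these sites. The other 16 all overlapped a MAX peak, with a median ratio of 2.89 (range 1.44 to 6.96), so the ratios of these sites lay within the range of other strong BMAL1 peaks. Both folds of a pair are taken over the same input, and the antibodies were not calibrated to each other. Duplicate tags per position were limited to 2 for BMAL1 and 1 for MAX. By the headers, this filter kept all 13866783 BMAL1 tags and 11545865 of 11545974 MAX tags. The part of this limit in the ratio was not tested. The ratio is therefore a description of these libraries.

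**Figure D3:**
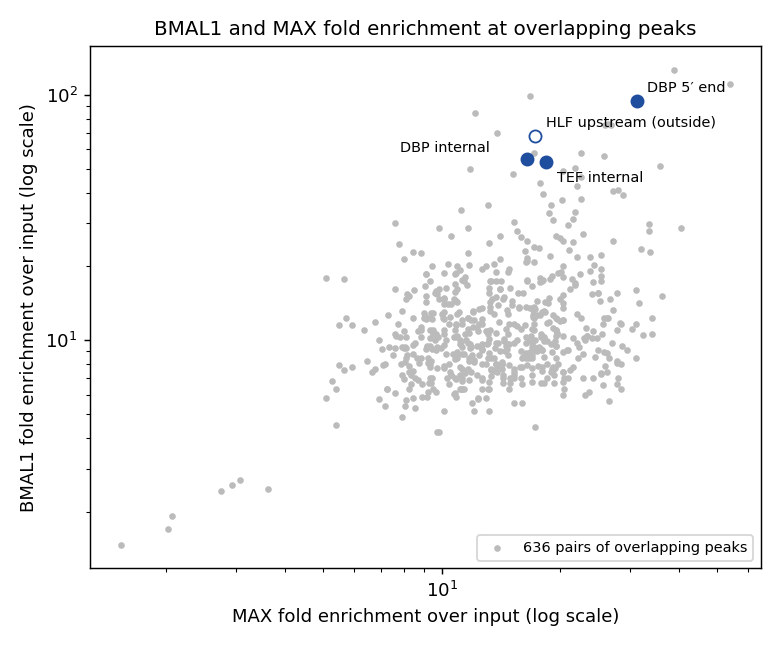
BMAL1 against MAX fold enrichment over input, both on log axes, for the 636 pairs of overlapping peaks (grey). The 3 member pairs (filled blue) and the pair upstream of HLF (open) lie in the upper part, among other pairs of high BMAL1 fold. Their BMAL1 folds are 53.3 to 94.6 and their MAX folds 16.5 to 31.3.

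The elements inside the peaks divided the sites. The internal DBP peak held an E′-box 14 bp from its BMAL1 summit (49137880 to 49137885), with E-boxes to either side at 60 bp (49137953 to 49137958) and 76 bp (49137818 to 49137823). TEF held 3 E-boxes, 102 bp (41777753 to 41777758), 209 bp and 320 bp from the BMAL1 summit, and an E′-box 819 bp away. Of all BMAL1 peaks, 4.37% held 3 or more E-boxes, but the median length over the whole BMAL1 list was 406 bp against 1351 bp at TEF, and the part of length in this count was not tested. The MAX peak at the first TSS of TEF held an E-box 72 bp from its summit, and that of NFIL3 held one 111 bp from its summit. Over all members, CACGTG was present in 2 of 3 BMAL1 and 4 of 7 MAX peaks, against 81.7% of all BMAL1 and 29.8% of all MAX peaks.

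The exception among the BMAL1 members was the strongest site. The BMAL1 peak at the 5′ end of DBP held neither CACGTG nor CACGTT, although CACGTG was present in 618 of 756 BMAL1 peaks. Among the 138 BMAL1 peaks without CACGTG (18.3% of the list), whose median fold enrichment was 8.81, it was the strongest. The next, at 75.6, was the strongest BMAL1 peak of CRY1. Of the 20 BMAL1 peaks of highest fold enrichment, 4 lacked CACGTG, the DBP 5′ peak included. Among the 98 with neither element the DBP 5′ peak was also the strongest, and the next had 46.5. The MAX peak there, which is longer, reached an E′-box 607 bp from its summit in the 5′ UTR of DBP. The DBP 5′ peak held CACGCG 3 times, the nearest 85 bp from the BMAL1 summit, and CACATG once (49141056 to 49141061), 42 bp from the BMAL1 and 10 bp from the MAX summit. The search for CACATG was added after this sequence had been seen. CACGCG was found in 18.5% of the BMAL1 list and 23.0% of the MAX list, and CACATG in 34.4% and 27.9%, so matches to both are common.

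The site upstream of HLF was the only one of those described here with a tandem of elements. Its E-boxes at 53315749 to 53315754 and 53315761 to 53315766 were separated by 6 bases and lay 18 bp and 6 bp from the BMAL1 summit, and a further E-box lay 75 bp on the other side. Pairs of E-boxes or E′-boxes separated by 6 or 7 bases occurred in 8 BMAL1 peaks, or 1.06% of the list, and in 11 MAX peaks. None of the 10 member peaks held such a pair.

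**Figure D4:**
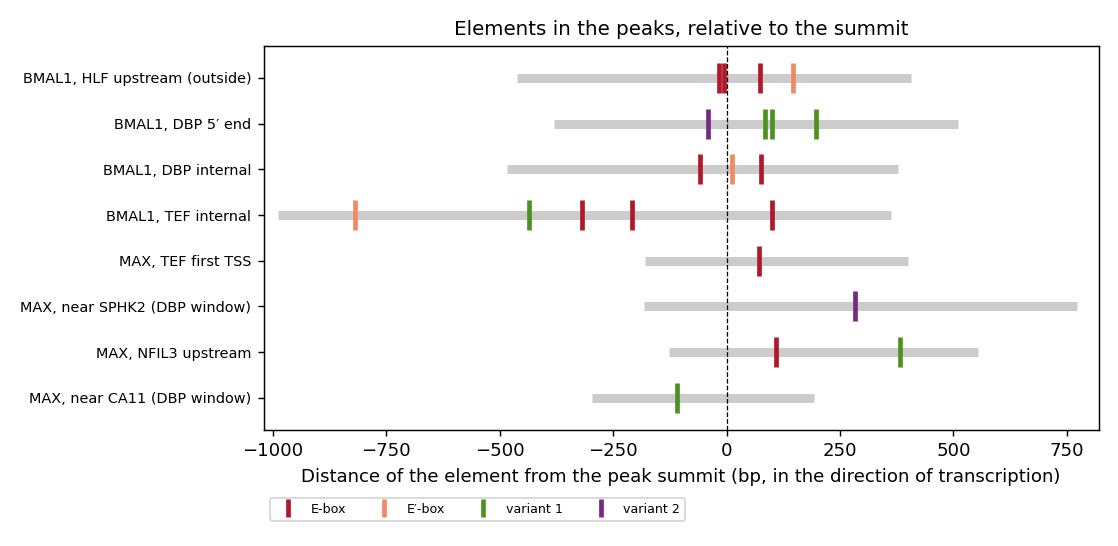
Positions of E-boxes (red), E′-boxes (salmon), CACGCG (variant 1, green) and CACATG (variant 2, purple) relative to the peak summit, in bp in the direction of transcription; grey bars are the peaks. The DBP 5′ end shows no red or salmon mark, and the pair of E-boxes next to the HLF summit is separated by 6 bases.

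Other clock genes treated by the same rule place these values. A BMAL1 peak was listed at 5 of 5 PER and CRY repressor genes, 3 of 5 REV-ERB and ROR receptor genes, 3 of 3 E-box repressor genes (BHLHE40, BHLHE41 and CIART) and 0 of 4 activator genes (BMAL1, BMAL2, CLOCK and NPAS2). A MAX peak was listed at 4 of 5, 2 of 5, 2 of 3 and 2 of 4 genes of these lists. Of the C/EBP genes and DDIT3, bZIP relatives of the PAR factors, 0 of 6 had a BMAL1 peak and 4 of 6 had a MAX peak. By its strongest BMAL1 peak, DBP (94.6) stood below NR1D1 (126.8) and PER1 (110.7) and above CRY1 (75.6) and CRY2 (75.2). TEF (53.3) stood next to BHLHE41 (56.4), NR1D2 (50.0) and PER2 (47.4). Among the 1003 protein-coding genes with a BMAL1 peak, DBP ranked 9 and TEF 27 by fold enrichment. Among the 11043 with a MAX peak, DBP ranked 91, TEF 1111 and NFIL3 5848. A peak in the window of several genes was counted for each of them, and the regions searched differ in size, from 40001 bp to 93994 bp among the 4 members and up to 761019 bp, at RORA, among the genes of the other lists. The part of region size in the list counts was not tested.

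**Figure D5:**
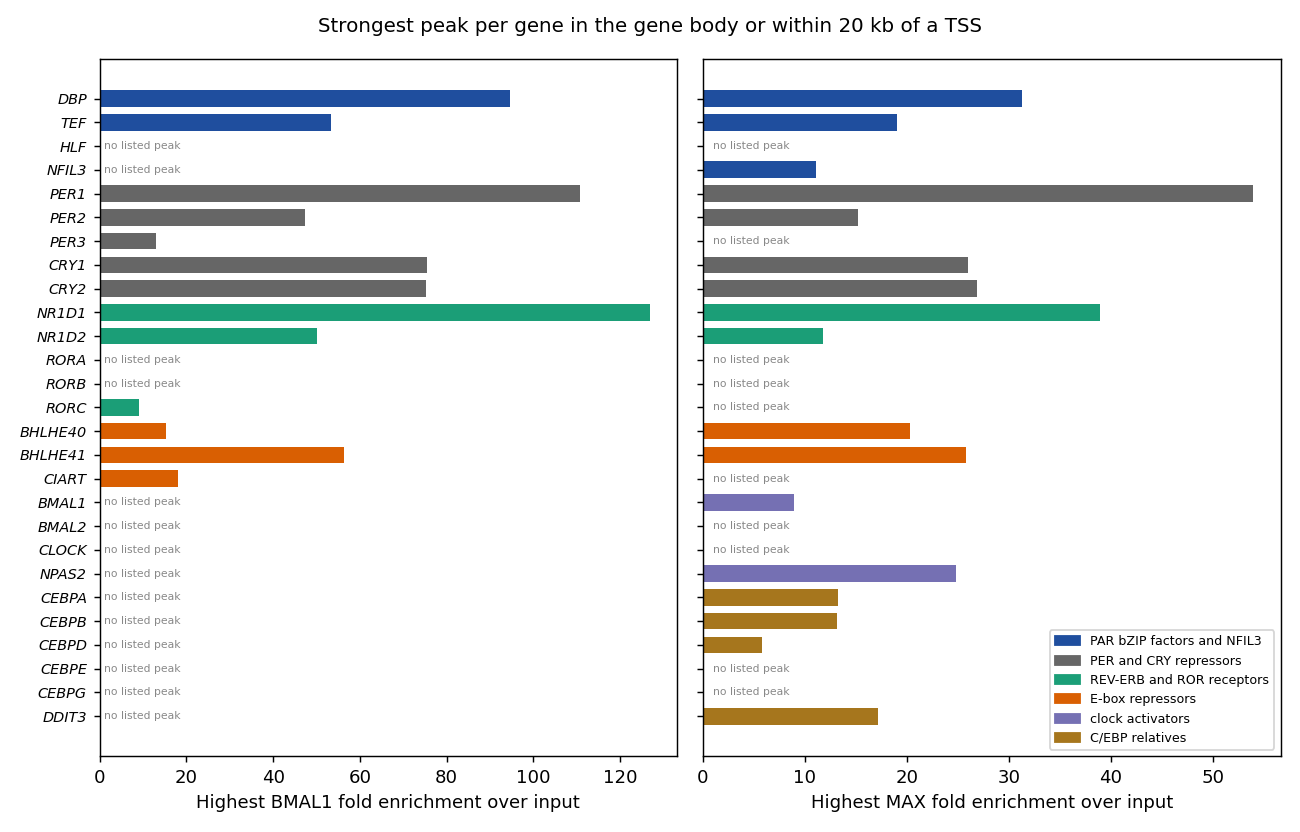
Highest BMAL1 (left) and MAX (right) fold enrichment over input among the peaks in the gene body or within 20 kb of a TSS of each gene, coloured by gene list. DBP reaches 94.6 and 31.3 and TEF 53.3 and 19.0, HLF has no listed peak and NFIL3 only a MAX peak of 11.1.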

How the data were processed

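ChIP-seq libraries for BMAL1 and MAX and 1 input library were analysed. According to the paper's methods and the submitters' processing notes, reads were aligned on hg19 with BWA 0.6.2 and peaks of each library were called with MACS2 2.0.9, both over 1 input. The lists that the authors deposited give positions, the pileup signal at the summit in extended fragments, the fold enrichment as a ratio to the local input background, and the -log10 p-value and -log10 q-value of each peak. Headers record a p-value cutoff of 1e-05, the methods 1e-08, and all listed peaks were used. Duplicate tags per position were limited to 2 for BMAL1 and 1 for MAX.

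Peaks were assigned by summit with GENCODE release 44 on GRCh37, the assembly named by hg19. Background was computed as pileup divided by fold enrichment, overlap required 1 bp, and elements were searched on both strands. The genes named are the 4 members, the genes nearest to their peaks, clock and C/EBP lists, and the 3 genes nearest to DBP and to TEF in both folds. Members and lists were chosen with earlier results of these data known. No test between groups was run. The rule, overlap and element steps were tested on simulated data. Alternatives covered the window, TSS set, threshold, overlap, ranking measure and elements. Expression data were not analysed here. Python 3.11.15, numpy 2.4.6, pandas 2.3.3, scipy 1.17.1 and matplotlib 3.10.9 were used.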

Additional observations from a re-analysis of the deposited data

How the results depend on the processing

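Counts of member peaks and genes stayed within 1.5 times of those reported under every window, TSS set and threshold tried. With 50 kb windows the members became 4 BMAL1 and 10 MAX peaks, and HLF joined the genes with both factors. At p 1e-12 the CA11 peak was lost, leaving 6 MAX members. The 3 shared pairs were kept at 50% overlap and with summits within 100 bp. CACGTG within 100 bp of the summit was present in 1 of 3 BMAL1 members, because the nearest E-box of TEF lies 102 bp away. It was present that close to the summit in 3 of 7 MAX members. Among all listed peaks, the shares with CACGTG within 100 bp of the summit were 75.3% for BMAL1 and 21.3% for MAX. The share of protein-coding genes with a BMAL1 peak was 3.74% with 10 kb and 8.4% with 50 kb windows, and 3.81% at p 1e-12. For MAX it was 48.9% and 66.2% with these windows, 52.2% at p 1e-08 and 39.1% at p 1e-12. Ranked by pileup instead of fold enrichment, the BMAL1 members stood above 96.2% to 97.1% of their list, and the CA11 peak above 52.5% of the MAX list. No paired analysis was possible because each antibody has 1 library. With 1 library per antibody, no replicate could be left out, and weaker sites than those listed may exist at this depth.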

Other observations

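D-boxes, the elements that the PAR factors and NFIL3 themselves bind, were searched as TTACGTAA, TTATGTAA and TTACATAA on both strands. None of the 10 member peaks held one, against 1.98% of all BMAL1 and 1.03% of all MAX peaks.

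Genes were ordered by likeness to DBP and to TEF, as the Euclidean distance of the log2 BMAL1 and MAX folds of their strongest peaks, over 969 other protein-coding genes with peaks of both factors. The genes nearest to DBP were CA11, RPL18 and SPHK2, at a distance of 0, because the windows of these neighbours contain the DBP peaks. When genes that share a peak with DBP were left out, a choice made after the data were seen, the nearest were ADIRF, MMRN2 and SNCG, which share 1 strongest peak of each factor (76.1 for BMAL1 and 26.5 for MAX, distance 0.39). Nearest to TEF were SYN3 (49.0 and 20.3, distance 0.15), GET4 and SUN1 (both 50.6 and 21.8, distance 0.21). The order rests on 1 library per factor.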
